A study of Homo sapiens with 4 samples.

Results

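The mitochondrial respiratory chain is built from subunits encoded by 2 genomes, and the genes described here are those of the nuclear genome. Members were taken by symbol: protein-coding nuclear genes outside chromosomes 8 and 14 whose symbols start with NDUFA, NDUFB, NDUFC, NDUFS, NDUFV, UQCR, COX4I, COX5, COX6, COX7, COX8 or ATP5, together with SDHA, SDHB, SDHC, SDHD and CYC1. The rule gave 91 of the 63677 genes in the files. Of these, 81 encode subunits or their isoforms, with 35 in complex I, 4 in complex II, 9 in complex III, 16 in complex IV and 17 in ATP synthase. The other 10 share a prefix only: 7 assembly factors (DMAC2, once named ATP5SL, among them), the supercomplex factor COX7A2L and 2 read-through loci. CYC1 lies on chromosome 8 and was kept because the rule names it. The chromosome bar removed 7 genes, namely NDUFB9, NDUFAF6, UQCRB and COX6C on chromosome 8 and ATP5MJ, NDUFB1 and COX8C on chromosome 14.

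RNAseq libraries were available from 2 lines, 2 libraries each. FLO-1 parental cells are an established human esophageal adenocarcinoma line, and FLO-1LM is 1 subline derived from a liver metastasis that FLO-1 formed after repeated passage in immunodeficient NSG mice. Neither line carried a treatment, and RNA was taken at 80% confluency, 24 hr after the medium was changed. The labels do not say whether the libraries of a line are separate cultures, so the p-values measure the spread between these libraries, which may be technical.

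Electrons enter the chain through complex I, the NADH dehydrogenase, and complex II, succinate dehydrogenase, pass through coenzyme Q to complex III and by cytochrome c to complex IV, the oxidase that reduces oxygen. Complexes I, III and IV pump protons, and ATP synthase uses the returning flow to make ATP. All subunits of complex II and most subunits of the others are nuclear genes, translated in the cytosol and imported, whereas a small set is made inside the mitochondrion from its own DNA.

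Total counts on genes ran from 19060310 to 25920336 per library, and edgeR's quasi-likelihood test called 382 of 17143 tested genes at an adjusted p below 0.05, which is 2.23% of them (0.402% higher and 1.83% lower in FLO-1LM). Epithelial markers identified both lines only in part: KRT8 and KRT18 were abundant, and EPCAM reached at most 0.466 CPM (read counts scaled to library size by TMM) in any library. Of 7 tested epithelial markers 5 were called lower in FLO-1LM, namely CDH1, KRT19, KRT8, KRT18 and CLDN4. The other 2, KRT7 and CLDN7, had log2 fold changes of 0.64 and 0.48, FLO-1LM over parental, and neither was called. The summed level of the epithelial markers was 496 to 512 CPM in FLO-1LM and 866 to 879 CPM in parental cells. Of 8 hepatocyte markers 6 were at 0 in every library, among them ALB and APOB, and the summed level was 13.4 to 14.8 CPM in FLO-1LM and 16.4 to 18.1 CPM in parental cells, nearly all of it SERPINA1. Fibroblast markers summed to 12.5 to 14.4 CPM and 10.9 to 13.8 CPM, nearly all COL1A1, with COL3A1, DCN and THY1 at 0. Leukocyte markers summed to 0.970 to 1.17 CPM and 0.544 to 0.677 CPM with PTPRC at 0, and endothelial markers to at most 0.313 CPM in any library with KDR at 0. The part of these markers in the values below was not tested. In bulk RNA, fewer cells expressing a gene and less of its RNA per cell cannot be told apart.

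Nuclear-encoded subunits were abundant in both lines, and 1 of those tested passed the threshold between them. The 91 members took 0.809% and 0.820% of all counts in the FLO-1LM libraries and 0.794% and 0.833% in the parental libraries, so that the parental libraries lay on either side of FLO-1LM. Of the 85 members with enough counts to test, 1 was called higher in FLO-1LM, the ATP synthase stalk gene ATP5PO, and 0 were called lower. That is 1.18% of the tested members, beside 2.23% of all genes. At an unadjusted p below 0.05 the edgeR test had 13 members, or 15.3%, beside 12.4% of all genes; DESeq2 called 0 members and limma voom called ATP5PO alone. Of the 13, the 95% interval lay above 0 for 11 and below 0 for 2. The median log2 fold change of the members, FLO-1LM over parental, was 0.03 (quartiles −0.04 and 0.13), beside 0.0016 for all tested genes (quartiles −0.14 and 0.13). It was −0.0066 without parental replicate 1 and 0.10 without parental replicate 2. Which members were called changed with the library left out, and so did the share of all genes called. The log2 fold change of ATP5PO was 0.29 without FLO-1LM replicate 1 and 0.40 without FLO-1LM replicate 2. It was 0.32 without parental replicate 1 and 0.37 without parental replicate 2.

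The 95% intervals bound differences between these libraries, whose spread may be technical, and not between further cultures of the lines. The median standard error of a member's log2 fold change was 0.093, and for 73 of the 85 tested members the 95% interval lay inside −0.5 to 0.5 on the log2 scale. The other 12 included low-count genes such as NDUFV2, NDUFA7, NDUFA4L2 and COX7A1, and also ATP5PO and ATP5ME, whose upper bounds were 0.53 and 0.58. Both FLO-1LM libraries lay above both parental libraries for 23 members (27.1%, against 21.0% of all genes) and below both for 8 members (9.41%, against 21.6% of all genes). Medians by complex were 0.02 for complex I, 0.07 for complex II, 0.07 for complex III, 0.02 for complex IV and 0.03 for ATP synthase. With each library left out in turn these medians changed sign in complexes I and II and in ATP synthase, and stayed above 0 in complexes III and IV.

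**Figure D1:**
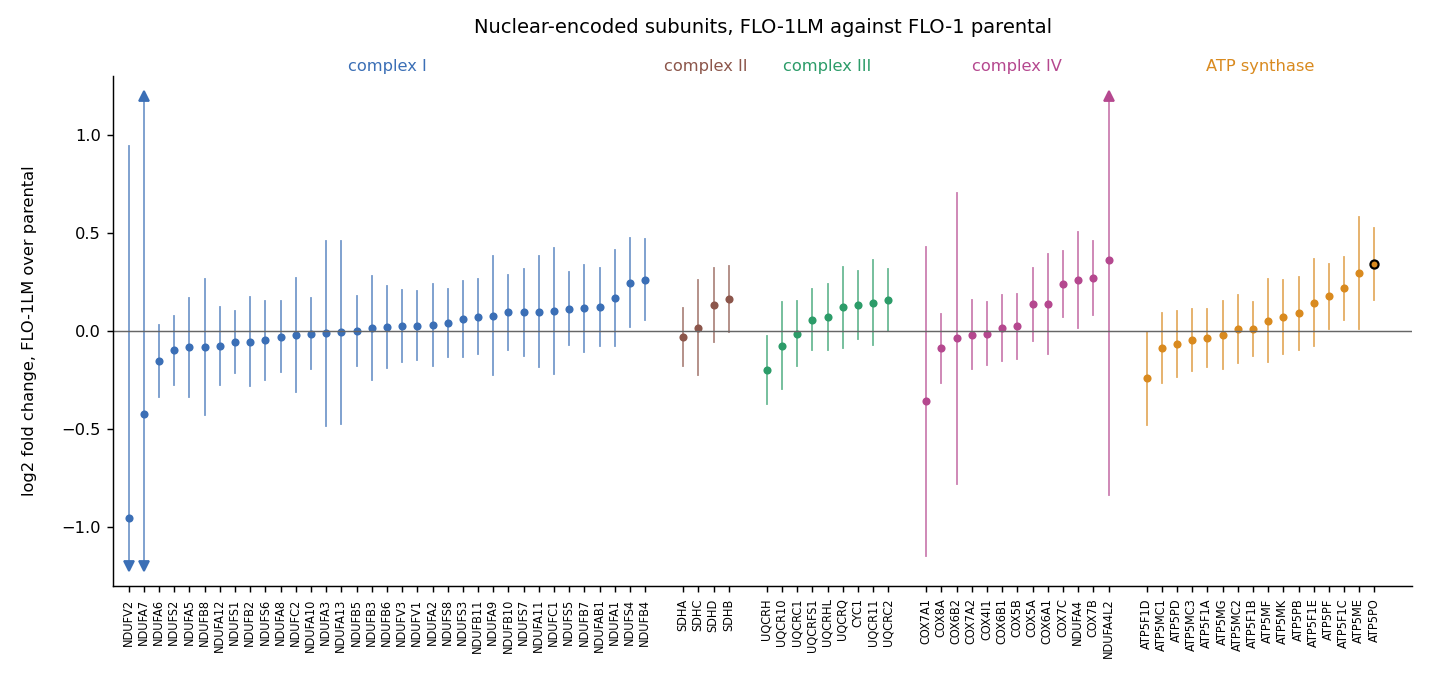
Log2 fold change of the 77 tested subunits, FLO-1LM over FLO-1 parental, grouped by complex and ordered within it; points are the edgeR estimates, lines the 95% intervals, arrowheads mark intervals that run past the axis, and the ringed point is ATP5PO, the 1 subunit called. Most intervals cross 0, and the wide ones belong to genes with few counts.

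Complex I takes electrons from NADH through its flavin and iron-sulfur core subunits, around which many accessory subunits are arranged. Of its 35 members, edgeR called 0 and 2 had an unadjusted p below 0.05, beside 2.23% and 12.4% of all tested genes. The 7 core subunits had a median log2 fold change of 0.03 and the 28 accessory subunits 0.02. NDUFS1, the largest iron-sulfur subunit, measured 156 and 161 CPM in FLO-1LM and 169 and 160.05 CPM in parental cells. The lines overlapped for NDUFS1, and its log2 fold change was −0.06 (SE 0.076).

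The largest positive changes in complex I were in NDUFB4, an accessory subunit of the membrane arm, and NDUFS4, an accessory subunit that stabilizes the NADH-oxidizing end. NDUFB4 had 57.1 and 65.9 CPM in FLO-1LM and 49.9 and 52.7 CPM in parental cells. Pseudogenes named after NDUFB4 had counts equal to 22.8% of its own over all libraries, and whether these came from NDUFB4 was not tested. NDUFS4 had 38.1 and 42.9 CPM in FLO-1LM and 34.7 and 33.5 CPM in parental cells. The lines did not overlap for either gene, with log2 fold changes of 0.26 (SE 0.098, adjusted p = 0.237 by edgeR) and 0.25 (SE 0.11, adjusted p = 0.343). NDUFS6, a zinc-binding accessory subunit with the highest level per coding length in the complex, overlapped between the lines at 87.4 and 89.4 CPM against 81.9 and 101 CPM.

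Complex II is the only complex without a mitochondrially encoded subunit, and its 4 genes encode the flavoprotein SDHA, the iron-sulfur protein SDHB and the membrane anchors SDHC and SDHD. SDHA measured 319 and 301 CPM in FLO-1LM and 320.02 and 313 CPM in parental cells, with overlapping libraries. SDHB measured 125 and 117 CPM in FLO-1LM and 108 and 107 CPM in parental cells. SDHD measured 79.7 and 71.1 CPM against 68.3 and 69.2 CPM. FLO-1LM was above parental in both libraries for SDHB and SDHD, yet neither was called, with log2 fold changes of 0.16 (SE 0.079, adjusted p = 0.413 by edgeR) and 0.13 (SE 0.090, adjusted p = 0.626). SDHC differed by 0.02 (SE 0.12), and its interval ran from −0.23 to 0.26.

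Complex III passes electrons from coenzyme Q to cytochrome c through the Rieske protein UQCRFS1 and cytochrome c1, the product of CYC1. CYC1 had 176 and 173 CPM in FLO-1LM and 146 and 171 CPM in parental cells, a log2 fold change of 0.13 (SE 0.083, adjusted p = 0.576 by edgeR). The core protein gene UQCRC2 had 193 and 184 CPM in FLO-1LM and 174 and 164 CPM in parental cells. Its log2 fold change was 0.16 (SE 0.075, adjusted p = 0.402). Of the small accessory genes, UQCR11 had a log2 fold change of 0.14 (SE 0.10) and UQCR10 one of −0.07 (SE 0.11). UQCRH, which encodes the acidic hinge protein, had the most negative change of the complex, with 146 and 129.6 CPM in FLO-1LM and 152 and 164 CPM in parental cells. Its log2 fold change of −0.20 (SE 0.082, adjusted p = 0.312) stood beside 0.07 (SE 0.081) for UQCRHL, an intronless copy that is also a member.

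Complex IV holds many tissue-restricted isoforms. None of its 13 tested members was called, beside 2.23% of all tested genes. COX7C and COX7B, small membrane subunits found in all tissues, were higher in both FLO-1LM libraries than in either parental library. COX7C had 158 and 162 CPM in FLO-1LM and 128 and 143 CPM in parental cells, a log2 fold change of 0.24 (SE 0.080, adjusted p = 0.162 by edgeR). Its pseudogenes had counts equal to 21.9% of those on COX7C over all libraries. COX7B had 66.5 and 64.4 CPM in FLO-1LM and 53.7 and 54.8 CPM in parental cells, a log2 fold change of 0.27 (SE 0.090, adjusted p = 0.164). COX6B1, which joins the monomers of the dimer, had the highest level of any subunit per coding length and measured 519 and 486 CPM against 457 and 538 CPM, a log2 fold change of 0.01 (SE 0.080).

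Isoforms of complex IV that are restricted to certain tissues were at 0 or low in both lines. COX4I2, the hypoxia-responsive and lung isoform of subunit 4, the muscle isoform COX6A2 and the testis isoform COX7B2 had 0 counts in every library, and 3 counts, the limit that a count of 0 allows, would be 0.116 to 0.156 CPM depending on the library. Their ubiquitous counterparts COX4I1, COX6A1 and COX7B averaged 241, 27.1 and 54.3 CPM in parental cells. COX6B2, the testis isoform, took 0.610% and 0.421% of the counts on COX6B2 and COX6B1 in FLO-1LM and 0.641% and 0.443% in parental cells. Exons of ENSG00000267706, a same-strand gene with 0 counts, cover 100% of the coding bases of COX6B2, so its level and share are uncertain. COX7A1, the muscle isoform, took 2.07% and 1.10% of the counts on COX7A1 and COX7A2 in FLO-1LM and 1.84% and 2.06% in parental cells. NDUFA4L2, the hypoxia-induced relative of NDUFA4, took 2.58% and 4.13% in FLO-1LM and 2.55% and 3.66% in parental cells. The lines overlapped for all 3 shares, and log2 fold changes were −0.04 (SE 0.35) for COX6B2, −0.36 (SE 0.38) for COX7A1 and 0.36 (SE 0.57) for NDUFA4L2. The constitutive COX4I1, COX7A2 and COX8A changed by −0.01, −0.02 and −0.09, each with an SE of at most 0.084.

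ATP synthase held the 1 member past the threshold. ATP5PO (older symbol ATP5O, GRCh37 chromosome 21, 35275757 to 35288118, minus strand) encodes the oligomycin sensitivity conferring protein at the top of the peripheral stalk. It had 84.1 and 78.1 CPM in FLO-1LM and 62.9 and 64.9 CPM in parental cells. Both FLO-1LM libraries were above both parental libraries, and the log2 fold change was 0.34 (SE 0.087, 95% interval 0.16 to 0.53, adjusted p = 0.0450 by edgeR), a 1.27-fold difference. The adjusted p ran from 0.0028 to 0.64 over the alternatives tried and was above the threshold in 5 of the 12, including each parental library left out in turn (0.643 without replicate 1 and 0.360 without replicate 2) and FLO-1LM replicate 1 left out (0.0517). Exons of ENSG00000249209, a gene on the same strand listed at 0 counts, cover 60.6% of the coding bases of ATP5PO, and how the authors' counting treated reads there is not stated. LINC00649 lies on the opposite strand of 4.945% of these coding bases and had 1173 counts over all libraries, beside 6522 for ATP5PO. Reads of the 2 genes cannot be told apart there if counting ignored strand.

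Other ATP synthase genes gave smaller values. ATP5F1C, the central shaft subunit gamma, had 191 and 179 CPM in FLO-1LM and 156 and 163 CPM in parental cells, a log2 fold change of 0.22 (SE 0.076, adjusted p = 0.193 by edgeR). ATP5PF, the stalk subunit F6, had 119 and 119 CPM against 103 and 108 CPM, a log2 fold change of 0.18 (SE 0.079, adjusted p = 0.357). ATP5ME, subunit e of the dimer interface, had 20.5 and 22.1 CPM against 17.6 and 17.2 CPM and a log2 fold change of 0.29 (SE 0.14, adjusted p = 0.386). All 3 were higher in both FLO-1LM libraries. GABPA and MYL5 lie on the opposite strand of 4.09% of the coding bases of ATP5PF and 43.96% of those of ATP5ME, and their reads cannot be told apart there if counting ignored strand. ATP5F1D, subunit delta of the same shaft, went the other way, with 38.6 and 49.1 CPM in FLO-1LM and 49.5 and 54.3 CPM in parental cells and a log2 fold change of −0.24 (SE 0.11, adjusted p = 0.397). Of the other stalk genes, ATP5PB changed by 0.09 (SE 0.089) with overlapping libraries. ATP5PD changed by −0.07 (SE 0.080), with both FLO-1LM libraries below both parental libraries. The rotor gene ATP5F1E changed by 0.15 (SE 0.11) with overlapping libraries, and its pseudogenes had counts equal to 33.2% of its own. ATP5F1B, the catalytic beta subunit with the highest level per coding length in the complex, had 958 and 990.05 CPM against 957 and 975 CPM, a log2 fold change of 0.01 (SE 0.065, 95% interval −0.13 to 0.15).

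The c-ring protein of ATP synthase is encoded by 3 genes that differ in their import sequences only. ATP5MC3 took 43.3% and 45.2% of the counts on the 3 genes in FLO-1LM and 45.1% and 44.04% in parental cells. ATP5MC2 took 36.2% and 33.5% in FLO-1LM and 33.2% and 34.4% in parental cells. ATP5MC1 took 20.5% and 21.3% in FLO-1LM and 21.7% and 21.6% in parental cells, the 1 share in which the lines did not overlap. The 3 log2 fold changes were −0.05 (SE 0.075), 0.01 (SE 0.083) and −0.09 (SE 0.085) for ATP5MC3, ATP5MC2 and ATP5MC1. ATP5MG, subunit g, changed by −0.02 (SE 0.082), and its copy ATP5MGL, with 1 and 7 counts in FLO-1LM and 2 and 0 in parental cells, was not tested.

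**Figure D2:**
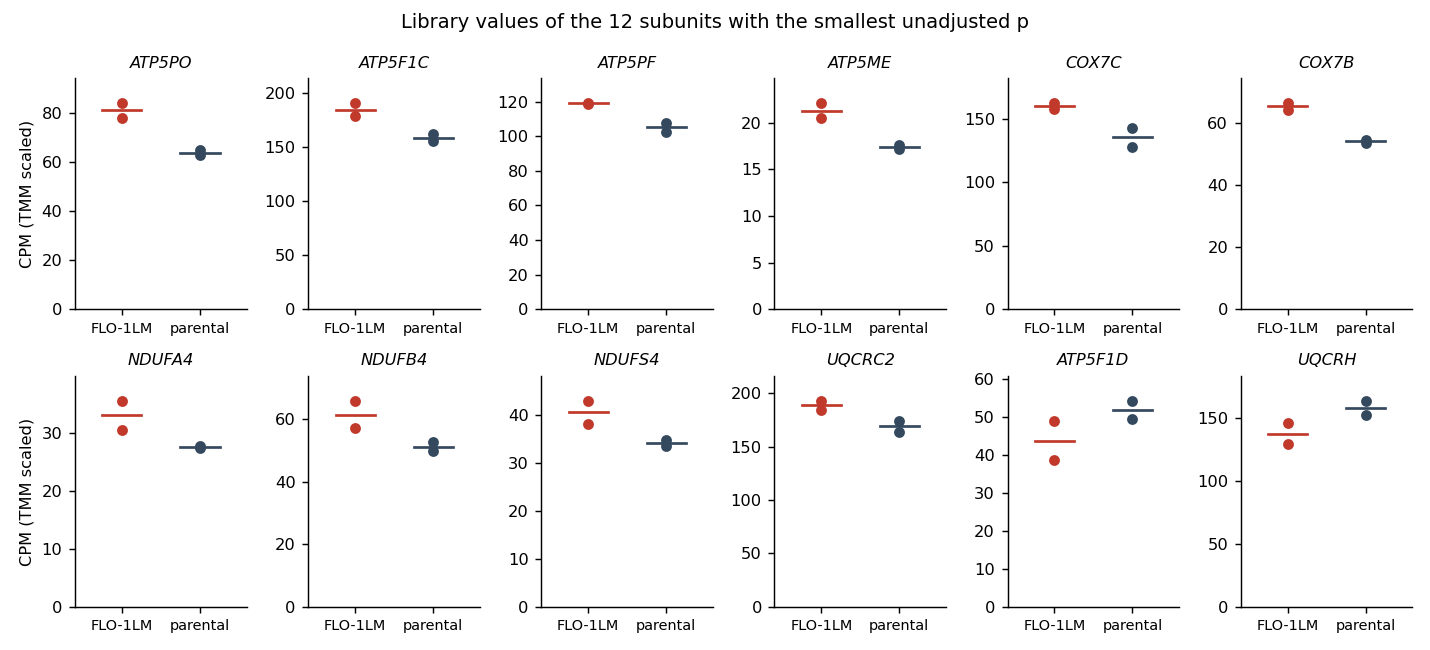
TMM-scaled CPM of the 12 subunits with the smallest unadjusted p, on linear axes from 0; points are libraries (2 per line) and bars are line means. In 10 panels both FLO-1LM points lie above both parental points, in ATP5F1D and UQCRH they lie below, and only ATP5PO was called. Choosing by p favors genes whose libraries separate. Over all tested genes, 21.0% lay above in this way and 21.6% below.

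Of the members that share a prefix but are not subunits, 8 were tested and 0 called, beside 2.23% of all tested genes. They were measured less precisely, with a median SE of 0.15 beside 0.090 for the subunits. Their median log2 fold change was 0.09, beside 0.03 for the subunits. NDUFAF1, which assembles the membrane arm of complex I, had 15.2 and 15.8 CPM in FLO-1LM and 13.5 and 10.7 CPM in parental cells, a log2 fold change of 0.35 (SE 0.17, adjusted p = 0.398 by edgeR). NDUFAF2, a late complex I assembly factor, changed by 0.18 (SE 0.17) and NDUFAF5, which modifies NDUFS7, by −0.33 (SE 0.31). COX7A2L, which links complexes III and IV, changed by −0.04 (SE 0.078). The read-through locus ATP5MF-PTCD1 had 0 and 0 counts in FLO-1LM and 4 and 8 in parental cells and was not tested, and NDUFC2-KCTD14 had 0 counts throughout.

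Levels of the nuclear genes within a complex were uneven. Per kilobase of coding sequence, parental means ran from 66.9 to 159 CPM in complex II and from 124 to 579 CPM in complex III. They ran from 84.0 to 609 CPM in ATP synthase, but from 0.735 to 246 CPM in complex I and from 3.39 to 1928 CPM in complex IV. The median level was 101 CPM per coding kb for complex I and 254 CPM per coding kb for ATP synthase. The bottom of complex I was held by NDUFV2 and NDUFA7, a core iron-sulfur subunit and an accessory subunit of the matrix arm. NDUFV2 had 11 and 2 counts in FLO-1LM and 7 and 15 in parental cells, and NDUFA7 had 1 and 12 against 13 and 2.

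Both of these genes share most of their coding bases with another gene on the same strand. Exons of ENSG00000265257 cover 84.7% of the coding bases of NDUFV2 and exons of ENSG00000167774 cover 78.3% of those of NDUFA7, and both partners had 0 counts in every library. In all, 14 tested subunits had coding bases inside exons of another same-strand gene of the files, and for 13 of them the partners had 0 counts. In complex I, 7 such genes had a median of 16.5 CPM per coding kb in parental cells against 122 CPM per coding kb for the 28 without an overlap. NDUFA9, NDUFA13 and NDUFB8 were among these 7, at 15.3, 16.5 and 23.0 CPM per coding kb with 67.9%, 55.2% and 85.2% of their coding bases shared. NDUFC2 and NDUFA11, also among the 7, stood higher, at 74.2 and 54.2 CPM per coding kb with 76.9% and 37.2% shared. Outside complex I there were further exceptions: COX8A, UQCR11 and SDHD, with 55.1%, 100% and 47.7% shared, stood at 594, 239 and 144 CPM per coding kb. Whether reads on shared bases were discarded in counting was not tested, and the levels of these 14 genes are uncertain for that reason.

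**Figure D3:**
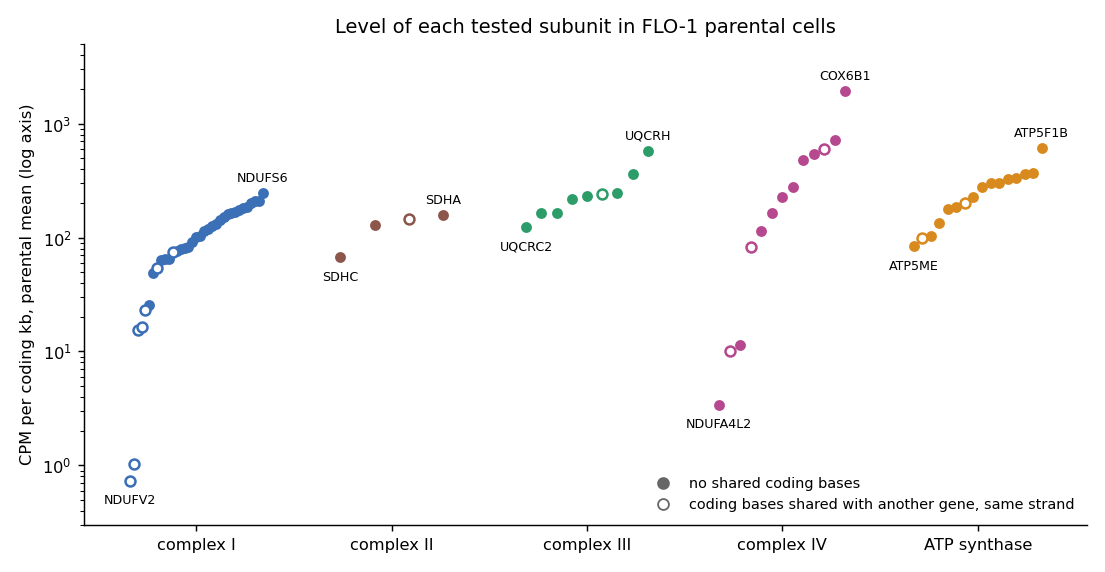
Mean CPM per coding kilobase in the parental libraries (log axis) for each tested subunit, ordered within its complex; open circles are subunits whose coding bases lie partly in exons of another gene on the same strand. In complex I the 5 lowest circles are open, starting from NDUFV2 at 0.735, whereas COX6B1, the highest of the 77 at 1928, is filled.

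Near-identical copies elsewhere in the genome had counts beside those of other members. Whether these counts came from the copies or from the members was not tested. Of all 75-base coding windows, the share identical to the copy named below was 41.7% for UQCRH, 8.88% for NDUFA4, 52.6% for COX6A1 and 25.1% for NDUFV2. The coding sequences of UQCRH and UQCRHL and of NDUFA4 and its processed pseudogene NDUFA4P1 are shown because counts on either gene of a pair cannot be told apart where the letters match. Each is written 5′ to 3′ on its own strand from the GRCh37 transcripts, from the first base of the start codon to the last base before the stop codon, and capitals mark the bases that differ within a pair.
UQCRH: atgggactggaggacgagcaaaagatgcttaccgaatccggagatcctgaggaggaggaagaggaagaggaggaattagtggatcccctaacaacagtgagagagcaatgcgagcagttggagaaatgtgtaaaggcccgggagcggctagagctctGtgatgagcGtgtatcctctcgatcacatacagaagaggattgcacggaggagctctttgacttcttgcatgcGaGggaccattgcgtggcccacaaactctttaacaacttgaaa
UQCRHL: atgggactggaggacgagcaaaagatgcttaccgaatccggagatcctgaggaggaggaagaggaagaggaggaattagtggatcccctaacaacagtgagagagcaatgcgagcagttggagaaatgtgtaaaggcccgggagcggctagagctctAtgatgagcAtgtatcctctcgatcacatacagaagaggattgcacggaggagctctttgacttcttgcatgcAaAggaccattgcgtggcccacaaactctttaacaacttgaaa
NDUFA4: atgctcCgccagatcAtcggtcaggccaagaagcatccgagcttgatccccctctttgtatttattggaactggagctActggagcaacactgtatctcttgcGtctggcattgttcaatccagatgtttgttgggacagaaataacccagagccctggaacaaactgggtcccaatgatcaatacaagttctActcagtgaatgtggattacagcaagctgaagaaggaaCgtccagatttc
NDUFA4P1: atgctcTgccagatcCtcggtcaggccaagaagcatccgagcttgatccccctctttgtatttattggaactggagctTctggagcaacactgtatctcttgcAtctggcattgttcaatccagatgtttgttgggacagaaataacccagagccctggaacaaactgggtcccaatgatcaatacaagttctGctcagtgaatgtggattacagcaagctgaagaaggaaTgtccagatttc

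UQCRH is a gene of 4 exons on chromosome 1 (46769370 to 46782448, plus strand) and UQCRHL a single exon on the same chromosome (16133869 to 16134144, minus strand). They differ at 4 of 273 coding bases, and the longest identical run is 157 bases. UQCRHL took 42.0% and 43.9% of the counts on the pair in FLO-1LM and 38.6% and 38.2% in parental cells, so both FLO-1LM shares were the higher ones. With the counts of UQCRHL and of the UQCRH pseudogenes added to UQCRH, the log2 fold change was −0.09 (adjusted p = 0.728 by edgeR) in place of −0.20.

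NDUFA4, an electron transport subunit once placed in complex I and now assigned to complex IV, lies on chromosome 7 (10971570 to 10979780, minus strand), and NDUFA4P1 on chromosome 1 (108047825 to 108048070, plus strand). They differ at 6 of 243 coding bases. NDUFA4 had 35.6 and 30.6 CPM in FLO-1LM and 27.7 and 27.5 CPM in parental cells, a log2 fold change of 0.26 (SE 0.12, adjusted p = 0.368 by edgeR). Its pseudogenes took 30.8% and 48.1% of the joint counts in FLO-1LM and 46.1% and 46.9% in parental cells. FLO-1LM replicate 1 was thus the library that stood apart, and with pseudogene counts added the log2 fold change was 0.10.

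COX6A1 and NDUFV2 also had many counts on copies. Unlike UQCRH and NDUFA4, both share coding bases with a same-strand gene at 0 counts, 53.5% of them in COX6A1 and 84.7% in NDUFV2. Whether the pseudogene shares below reflect reads split with a copy or reads lost to that overlap was not tested. COX6A1 and COX6A1P2 on chromosome 6 differ at 4 of 327 coding bases, and pseudogenes took 41.2% and 51.6% of the joint counts of COX6A1 and its pseudogenes in FLO-1LM and 52.9% and 53.8% in parental cells, again lowest in FLO-1LM replicate 1. The log2 fold change of COX6A1 was 0.14 (SE 0.12) alone and −0.06 with them added. For NDUFV2, 94.8% identical over its aligned coding bases to NDUFV2P1 on chromosome 19, the pseudogenes took between 98.2% and 99.8% of the joint counts in every library, and the log2 fold change went from −0.95 (SE 0.90) alone to 0.05 with them added. Among 31 tested pseudogenes named after members, edgeR called 0, and 0 had an unadjusted p below 0.05, beside 2.23% and 12.4% of all tested genes. With all pseudogene counts added to their members 84 members were tested and 1 was called, ATP5PO.

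**Figure D4:**
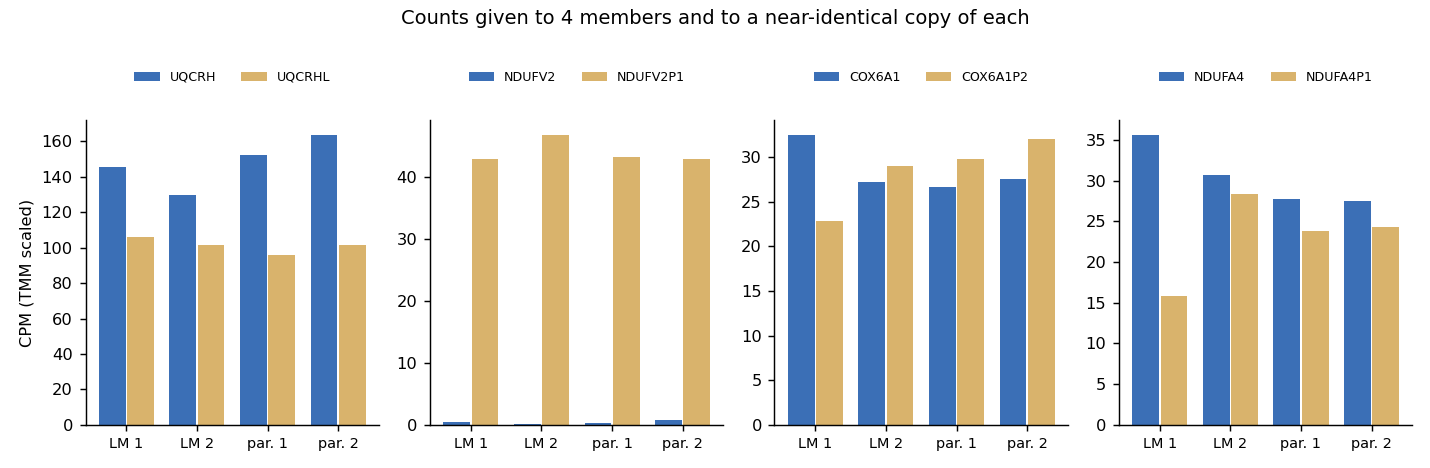
TMM-scaled CPM of UQCRH, NDUFV2, COX6A1 and NDUFA4 (blue) and of 1 near-identical copy of each (tan) in the 4 libraries, on linear axes from 0; LM is FLO-1LM, par. is parental and the digit is the replicate. NDUFV2P1 holds nearly all counts of its pair, and in FLO-1LM replicate 1 the COX6A1 and NDUFA4 copies are lowest against their member.

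Members shared promoter letters that the symbol rule did not use. RefSeq promoters (GRCh38.p14, 250 bases before the start site) were matched by symbol for 68 of the 81 subunits. On either strand, GCGCATGC, the core of the site of nuclear respiratory factor NRF1, was found in 12 of them (17.6%), compared with 2.81% of 27305 promoters of all kinds. CCGGAAG, an ETS family site of the kind bound by GABPA, was found in 17 (25%, compared with 8.82%), and TGACGTCA, the cyclic AMP response element, in 4 (5.88%, compared with 1.77%). AAGATGGC, a YY1 site, was found in 1 (1.47%, compared with 1.37%). At least 1 of the 4 motifs was in 27 of the 68 promoters (39.7%, compared with 13.6%). NRF1 and GABPA are known regulators of respiratory genes, and a letter match is not a bound site. GCGCATGCGC holds the NRF1 core on both strands, as in NDUFB4.

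The promoters of NDUFB4 and ATP5PF, which hold such motifs, and that of ATP5PO, the called member, which holds none of the 4, are given for the strand of the gene with motif letters in capitals. They lie at chr3:120596086-120596335 (plus strand), chr21:25735055-25735304 (minus strand) and chr21:33915805-33916054 (minus strand).
NDUFB4: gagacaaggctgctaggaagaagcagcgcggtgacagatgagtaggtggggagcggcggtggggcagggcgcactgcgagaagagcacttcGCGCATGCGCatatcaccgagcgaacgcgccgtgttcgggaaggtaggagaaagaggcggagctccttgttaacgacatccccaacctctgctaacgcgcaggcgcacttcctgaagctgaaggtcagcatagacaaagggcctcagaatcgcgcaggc
ATP5PF: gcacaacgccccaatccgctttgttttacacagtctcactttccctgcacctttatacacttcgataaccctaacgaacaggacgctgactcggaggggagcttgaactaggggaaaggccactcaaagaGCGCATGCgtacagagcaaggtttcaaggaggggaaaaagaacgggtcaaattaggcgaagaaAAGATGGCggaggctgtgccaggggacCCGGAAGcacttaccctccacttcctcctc
ATP5PO: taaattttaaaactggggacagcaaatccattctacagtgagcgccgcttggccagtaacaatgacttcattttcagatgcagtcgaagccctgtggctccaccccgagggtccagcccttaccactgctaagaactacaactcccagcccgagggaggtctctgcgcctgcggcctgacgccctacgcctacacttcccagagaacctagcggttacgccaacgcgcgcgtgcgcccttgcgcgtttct

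The 12 tested subunits with the NRF1 core had a median log2 fold change of 0.14, and the 54 tested subunits whose promoter lacked it 0.03. For the ETS site the medians were 0.07 in 17 and 0.03 in 49. For the cyclic AMP response element they went the other way, −0.03 in 4 and 0.05 in 62, and the 1 subunit with the YY1 site was ATP5PF, at 0.18. These are descriptions, with no test.

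Regulators of the respiratory genes gave no calls. Of 17 tested nuclear regulators, edgeR called 0 and 3 had an unadjusted p below 0.05, beside 2.23% and 12.4% of all tested genes. All 3 were higher in FLO-1LM. MYC, a growth regulator, had 91.1 and 95.6 CPM in FLO-1LM and 68.7 and 80.5 CPM in parental cells, a log2 fold change of 0.32 (SE 0.091, adjusted p = 0.079 by edgeR). TFB2M, a mitochondrial transcription factor, gave 0.32 (SE 0.12, adjusted p = 0.235) and HIF1A, the hypoxia-inducible factor, 0.22 (SE 0.095, adjusted p = 0.346). NRF1 averaged 16.6 CPM in FLO-1LM and 17.9 CPM in parental cells, GABPA 71.3 and 68.1 CPM and TFAM, which packages and transcribes mitochondrial DNA, 111 and 116 CPM. The libraries of the lines overlapped for NRF1 and GABPA and not for TFAM, whose log2 fold change was −0.06. PPARGC1A, the coactivator that drives mitochondrial biogenesis in muscle and brown fat, had 0 counts in every library. Across 7 lists of assembly factors, coenzyme Q and cytochrome c genes, the citric acid cycle, these regulators and adenine nucleotide carriers, 114 of 119 genes were tested. Of these, edgeR called 0 and 10 had an unadjusted p below 0.05, beside 2.23% and 12.4% of all tested genes. Their list medians ran from −0.04 for the 5 ATP synthase assembly and inhibitor genes to 0.08 for the 15 complex I assembly factors, some of which are members by their prefix.

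Subunits of the same complexes encoded by mitochondrial DNA gave other values. Of these 13 genes, edgeR called 8 higher and 1, MT-ND6, lower, and their median log2 fold change was 0.30; without parental replicate 1 the calls fell to 5. The 8 called higher were MT-ND1, MT-ND2, MT-ND4, MT-ND5, MT-CO1, MT-CO2, MT-CO3 and MT-ATP8. Over all tested genes, 0.402% were called higher and 1.83% lower. For each count on a nuclear-encoded subunit there were 8.67 and 7.99 counts on mitochondrially encoded subunits in FLO-1LM and 7.05 and 7.02 in parental cells. The ratio was 12.3 and 11.6 against 10.03 and 9.70 in complex I, 4.36 and 4.22 against 3.91 and 3.74 in complex III, 21.5 and 19.0 against 17.2 and 16.8 in complex IV and 2.74 and 2.52 against 2.41 and 2.44 in ATP synthase. Both FLO-1LM libraries were above both parental libraries in each. With 2 libraries per line an exact permutation test of such a ratio cannot go below p = 0.333, so none is given.

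**Figure D5:**
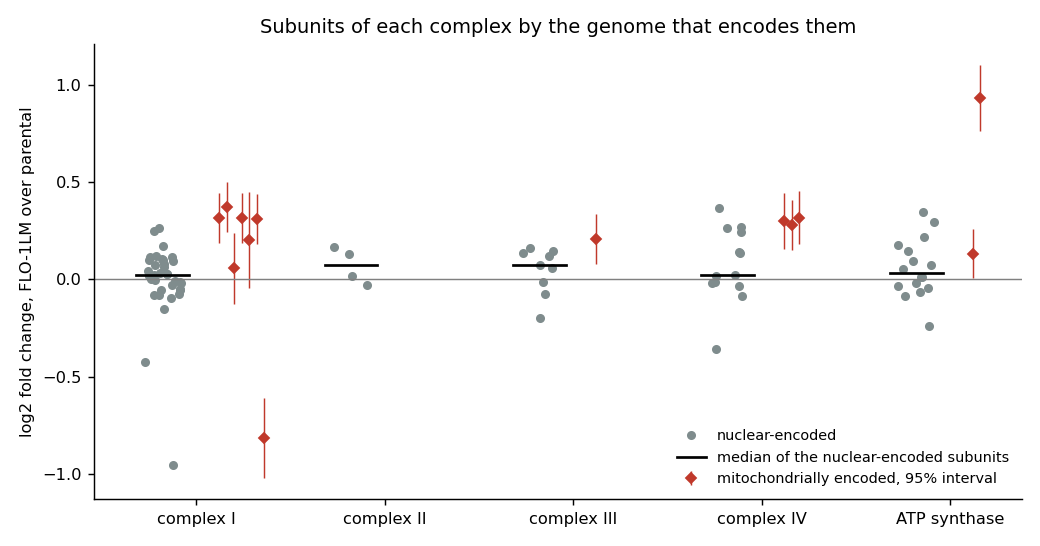
Log2 fold change, FLO-1LM over FLO-1 parental, of tested nuclear-encoded subunits (grey points, black bar at the median) and of mitochondrially encoded subunits (red diamonds with 95% intervals) for each complex. The nuclear medians lie between 0.02 and 0.07, and 12 of the 13 red diamonds lie above 0, the exception being MT-ND6 in complex I.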

How the data were processed

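RNAseq was compared between 2 FLO-1LM and 2 FLO-1 parental libraries, grouped by the cell line in the labels. The authors prepared directional libraries from total RNA, trimmed reads and mapped them to GRCh37, and deposited unnormalized read counts per Ensembl gene. The submitters' processing notes name bcl2fastq 2.17 and Trimmomatic 0.30. Which aligner and which counter were used, and with what strand setting, is not given in the sources used here.

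Counts were tested with edgeR 4.0.16 (R 4.3.3) after filterByExpr (minimum count 10, minimum total 15) and TMM scaling, by glmQLFit and glmQLFTest, with Benjamini-Hochberg adjustment over all 17143 tested genes and a threshold of 0.05. SE was recovered from the F statistic, as the size of the log2 change over the root of F, and 95% intervals use the degrees of freedom of the test. CPM are TMM scaled. At this depth a log2 fold change had an SE of 0.065 for ATP5F1B and 0.90 for NDUFV2. Limits given for counts of 0 cover counting error only. The scripts were tested on simulated data.

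Symbols, positions and coding lengths come from a GENCODE annotation lifted to GRCh37, later than the one counted on; 8012 file genes are not in it. Members were matched by current symbols, with DMAC2 matched by its older name ATP5SL. ATP5MK, once USMG5, came in by its current prefix, and NDUFAF8 and ATP5IF1, whose older symbols lack the prefixes, were left out. Sequences come from GENCODE transcripts and RefSeq promoters. The members and lists were chosen with earlier results of these data known. Named genes were every called member, in each complex the 2 largest changes in each direction and the highest level per length, the isoform families, the SDH genes, CYC1, members not tested, and called genes of the lists. ATP5F1C, ATP5PF, ATP5PB, ATP5PD, ATP5F1E, COX7C, NDUFS1, NDUFA9, NDUFA13, NDUFB8, UQCRFS1, KRT7 and CLDN7 were added after their values were seen. So were NDUFC2, NDUFA11 and the regulators named.

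Alternatives were DESeq2 1.42.0, limma 3.58.1 voom, RLE factors, library totals only, no low-count filter, at least 10 counts in every library, mitochondrial genome genes left out, only subunits, each library left out, and, chosen after seeing the data, pseudogene counts added to members.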

Additional observations from a re-analysis of the deposited data

How the results depend on the processing

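ATP5PO kept its direction in every alternative and was no longer called with DESeq2 (adjusted p = 0.055) or library totals only (0.071), so 0 members were called higher there. With library totals only, the complex IV median was −0.0064 and the median of all genes −0.03. Without the low-count filter 577 genes were called over all. Leaving out each library in turn gave 116 to 1052 genes called, 0 to 3 members called higher, 0 to 2 called lower and 5 to 10 mitochondrially encoded subunits called. The median log2 fold change then ran from −0.0066 to 0.10 over the members, from −0.025 to 0.093 in complex I, from −0.013 to 0.17 in complex II, from 0.023 to 0.11 in complex III, from 0.018 to 0.13 in complex IV and from −0.0095 to 0.082 in ATP synthase. The cause of these shifts was not tested. A line left with 1 library is assumed to vary like the other. Of 600 values of 51 named genes under the alternatives, 28 differed in sign from the main value. No paired analysis was possible because the labels number no replicates; the numbers used here only name the libraries.

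With 2 libraries per line, a median member interval reached 0.19 on either side of its log2 fold change, before adjustment for the number of genes tested. Larger differences could also go uncalled after adjustment: COX7B, at 0.27, was not called (adjusted p = 0.164 by edgeR). Low counts limit NDUFV2, NDUFA7, COX6B2, COX7A1 and NDUFA4L2 most.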
